A study of Mus musculus with 6 samples.

Results

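The eicosanoid enzyme genes are the 10 genes of the lipoxygenase, leukotriene and prostanoid routes whose symbols were matched in the gene tables, namely Alox15, Alox12, Alox5, Alox5ap, Lta4h, Ltc4s, Ptgs1, Ptgs2, Tbxas1 and Hpgds, out of 24411 genes in all. Alox15 was taken because it rose in the comparison of Brd9 KO with control cells, and the other 9 were added for their place in the pathway with the results of that comparison known. The difference between the groups in these 10 genes is therefore given as a description, with no test of its own. RNA-seq of poly(A)-selected RNA was performed on hematopoietic stem and progenitor cells (HSPCs) of C57BL/6 mice in 6 libraries. Brd9 encodes a bromodomain subunit of the non-canonical BAF chromatin remodelling complex.

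The 3 control libraries came from CD45.2(+) Brd9fl/fl mice and the 3 Brd9 KO libraries from CD45.2(+) Mx1-Cre Brd9fl/fl mice. Both groups carry the floxed allele and both received pIpC, a double-stranded RNA mimic that switches on the Mx1 promoter, at 20 mg/kg every other day for 3 doses. Cells were taken 8 weeks later. Control mice carry no Cre, so Cre itself and loss of Brd9 cannot be told apart, and Mx1-Cre acts in other interferon-responsive cells besides blood cells. The labels name lineage-negative marrow of femora and tibiae, and the study's text names sorted Lin-c-Kit+ cells. For the treated animals, the labels describe transplant recipients and the series design describes primary mice treated from 4 weeks after birth. With the 8 weeks that followed, this gives younger mice than the 4 months named in the study's text. The study describes biological triplicates, while no label ties a replicate to an animal, and p-values may then measure technical spread alone.

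Arachidonic acid, once freed from membrane phospholipids, is oxidised along routes that begin with different enzymes. The 5-lipoxygenase Alox5, held at the membrane by its activating protein Alox5ap, makes leukotriene A4, which Lta4h turns into leukotriene B4 and Ltc4s into leukotriene C4. Alox15, the leukocyte-type 12/15-lipoxygenase of mouse eosinophils and resident macrophages, and Alox12, the platelet-type enzyme, make hydroperoxy fatty acids. The cyclooxygenases Ptgs1 and Ptgs2 make prostaglandin H2, from which Tbxas1 makes thromboxane A2 in platelets and macrophages and Hpgds makes prostaglandin D2 in mast cells and megakaryocytes.

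Promoter sequences, from 250 bases before to 50 after the start of a gene, were taken from RefSeq (GRCm38.p6, the assembly of mm10) and had an entry for 8 of the 10 genes. They were searched on both strands for the GATA motif AGATAA, for the GC box GGGCGG and for GAGGAA, a core bound by PU.1 and other ETS proteins. A STAT6 motif, TTC and then GAA after 4 bases, and the AP-1 motif TGANTCA were searched as well. These motifs do not overlap one another in the promoters printed. GAGGAA stood once in each of the 8 promoters, among 32851 promoter entries of which 28.3% held it. The letters around it are shown because they are what the 8 promoters share, with the motif in capitals and up to 10 bases on either side.
Alox5: agatggggcaGAGGAAcaagggcttc
Alox12: tctgggctgaGAGGAAtgcct
Ltc4s: tggcccaggaGAGGAAgagcctcggc
Lta4h: gaggtgcgggGAGGAAccgaggggtg
Ptgs1: ggctggagcaGAGGAAgttggcggtc
Ptgs2: tggGAGGAAaccggagacc
Hpgds: cttttaggtgGAGGAAgtggcctctg
Tbxas1: tctttataaaGAGGAAggaagcagag
In Alox5, Ptgs1, Ptgs2 and Hpgds these letters lie on the strand of the gene, and in Alox12, Ltc4s, Lta4h and Tbxas1 on the opposite strand, from which they are written. The motif starts 136 bases before the RefSeq start of Alox5, 24 before that of Ptgs1, 49 before that of Hpgds and 19 before that of Tbxas1. AGATAA was found in none of the 8, and 11.2% of all promoter entries held it. A match is a run of letters and not a site of binding.

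The promoters of Alox5 and Tbxas1 are given whole because these genes, with Alox15, are the members that passed the test between the groups. Motif letters are in capitals. The Alox5 promoter lies on the minus strand at chr6:116461129-116461428 and holds GAGGAA and a GC box, which 35.7% of promoter entries held.
Alox5: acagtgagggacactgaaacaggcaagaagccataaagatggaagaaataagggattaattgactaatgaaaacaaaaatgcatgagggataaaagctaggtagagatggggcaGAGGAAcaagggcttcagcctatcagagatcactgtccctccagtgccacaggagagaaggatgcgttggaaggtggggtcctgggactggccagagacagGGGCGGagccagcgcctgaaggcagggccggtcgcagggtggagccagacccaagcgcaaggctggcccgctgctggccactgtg
The Tbxas1 promoter lies on the plus strand at chr6:38918736-38919035. Its RefSeq start lies 43.6 kb inside the gene as the mm10 annotation draws it, so it belongs to a start site other than the first. It holds 1 STAT6-type motif, found in 6.95% of promoter entries, 1 AP-1-type motif, found in 7.81%, and GAGGAA on its opposite strand.
Tbxas1: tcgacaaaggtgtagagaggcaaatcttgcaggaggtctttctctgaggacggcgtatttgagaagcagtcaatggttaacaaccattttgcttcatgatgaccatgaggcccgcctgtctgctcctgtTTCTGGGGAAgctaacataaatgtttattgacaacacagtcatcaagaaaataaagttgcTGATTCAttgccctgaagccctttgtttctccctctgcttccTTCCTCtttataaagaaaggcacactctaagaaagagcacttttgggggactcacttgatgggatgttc

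Total counts ranged from 21151031 to 28500168 per library, and 12953 genes passed a filter of 0.405 CPM (read counts scaled to library size) in at least 3 libraries and were tested. All 10 members passed it, and all 10 would have passed on the control libraries alone. Brd9 itself was at 45.9, 49.1 and 52.1 CPM in the control libraries and 15.6, 13.5 and 21 CPM in the KO libraries, with a log2 fold change of -1.56 ± 0.17 (SE) and an adjusted p of 0.00345 in edgeR. Brd9 KO replicate 3 stood apart from the other libraries on the second principal component, which held 28.0% of the variance. Values without it are given beside the results that it changed most.

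Alox15, Alox5 and Tbxas1 were the members called higher in Brd9 KO, at an adjusted p under 0.1 in edgeR's quasi-likelihood test over all genes. In the whole data 15.4% of tested genes were called, 9.19% as higher and 6.25% as lower in Brd9 KO. The members' 3 of 10 calls were all higher, and the median log2 fold change of the 10 was 0.47 against 0.016 over all tested genes. These shares and medians follow in part from how the genes were chosen, and nothing is read from them. The 3 KO libraries lay wholly above the 3 control libraries in Alox15, Alox5 and Tbxas1 and wholly below them in Ptgs2, while the groups overlapped in the other 6 members. Over all tested genes 17.2% were apart with Brd9 KO higher and 16.3% with Brd9 KO lower. Without Brd9 KO replicate 3 there were 6 calls, as Alox12 was then also called higher and Lta4h and Ptgs2 lower. In that fit 4150 of all 13124 tested genes were called, 2141 higher and 2009 lower. On the TPM scale 5 members were called, with Alox5ap and Ltc4s added, among 1338 of all 12953 tested genes. The median log2 fold change of all genes was itself 0.18 on that scale. In bulk RNA, a change in the number of cells of a type and a change in RNA per cell cannot be told apart.

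**Figure D1:**
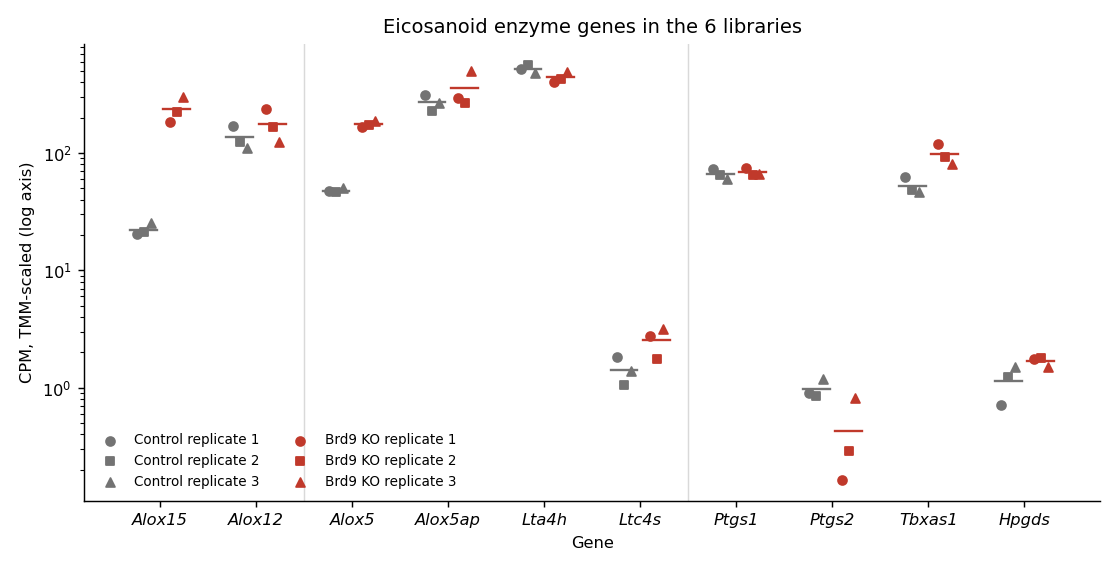
TMM-scaled CPM on a log axis (vertical) of the 10 eicosanoid enzyme genes (horizontal) per library. Grey marks control and red marks Brd9 KO, each point is 1 library, lines are means of 3 libraries, and vertical rules divide the lipoxygenases Alox15 and Alox12, the leukotriene genes and the prostanoid genes. Red points lie wholly above grey ones in Alox15, Alox5 and Tbxas1 and wholly below them in Ptgs2.

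Alox15 lies on chromosome 11 from 70344152 to 70352031 (mm10, minus strand) and has 14 exons. It was at 20.4, 21.3 and 25.1 CPM in the control libraries and 183, 221 and 302 CPM in the KO libraries. The lowest KO library was thus far above the highest control library. Its mean of 22.2 ± 2.52 CPM in control cells compared with 235 ± 60.9 CPM in KO cells (SD, n = 3 each) gave a 10.6-fold difference. The log2 fold change of 3.40 ± 0.21 was the 9th highest among the 12953 tested genes. With any 1 library left out it ranged from 3.18 to 3.56, and Alox15 was called each time. Alox15, Alox12 and the other lipoxygenases are related in sequence, but the longest run of bases that the Alox15 transcript shares with that of Alox12 was 18, and all expected counts of the 10 members were whole numbers, as when no reads are divided between genes.

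Alox12, whose gene lies on the same chromosome from 70241457 to 70255353, did not pass the test. It was at 171, 125 and 111 CPM in the control libraries and 235, 167 and 124 CPM in the KO libraries. The groups overlapped, and the range within each group exceeded the difference between their means. Its log2 fold change was 0.37 ± 0.25, and it was 0.56 ± 0.21, past the threshold, without Brd9 KO replicate 3, the KO library with the lowest Alox12.

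Alox5 lies on chromosome 6 from 116410077 to 116461178 (minus strand) and has 14 exons. It was at 47.0, 46.1 and 50.2 CPM in the control libraries and 168, 172 and 188 CPM in the KO libraries. Both groups were tight, with means of 47.8 ± 2.18 and 176 ± 10.8 CPM (SD, n = 3 each). The difference was 3.68-fold, or 1.88 ± 0.10 on the log2 scale, and moved only between 1.83 and 1.92 with any 1 library left out. Its promoter is the first of those printed whole above.

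The partners of Alox5 in the leukotriene route did not pass the test with it. Alox5ap, the activating protein, was at 313, 229 and 269 CPM in the control libraries and 295, 267 and 503 CPM in the KO libraries. Only Brd9 KO replicate 3 lay above the control range. The log2 fold change was 0.39 ± 0.24 with all libraries and 0.06 ± 0.14 without that library. In the same library the 11 neutrophil genes examined had a median log2 level 0.80 over that of control, while the other KO libraries were at -1.05 and -1.17. The eosinophil list read below was also highest in that library, at 2.04 against 1.12 and 1.10. So was the mast cell and basophil list, at 1.21 against 0.86 and 0.75. The megakaryocyte and platelet list was lowest there, at 0.64 against 1.19 and 0.83, and other lists went either way. The part of any of these cells in the Alox5ap value was not tested.

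Lta4h, the hydrolase that makes leukotriene B4, was at 521, 564 and 481 CPM in the control libraries and 402, 428 and 490 CPM in the KO libraries. The highest KO library reached the lowest control library. Its difference was -0.25 ± 0.12 on the log2 scale, not called, and -0.33 ± 0.12, called lower, without Brd9 KO replicate 3. Ltc4s, the synthase of leukotriene C4, was scarce, at 1.82, 1.05 and 1.4 CPM in the control libraries and 2.74, 1.75 and 3.13 CPM in the KO libraries. These values rest on 25 to 67 counts per library. The groups overlapped and the log2 fold change was 0.82 ± 0.32. It passed the threshold only on the TPM scale and with the replicate number as a block.

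Of the cyclooxygenases, the constitutive Ptgs1 was by far the more abundant and did not pass the test. It was at 72.7, 64.4 and 59.7 CPM in the control libraries and 73.8, 64.6 and 66.4 CPM in the KO libraries. The log2 fold change was 0.06 ± 0.11, of either sign when 1 library was left out (-0.01 to 0.14). The inducible Ptgs2 was at 0.908, 0.843 and 1.18 CPM in the control libraries and 0.164, 0.291 and 0.820 CPM in the KO libraries. Every KO library lay below every control library, by a small margin in replicate 3, on 20 to 32 counts in control and 4 to 17 in Brd9 KO. The log2 fold change of -1.24 ± 0.52 was not called, and without Brd9 KO replicate 3 it was -2.07 ± 0.44 and was called lower. Within each library Ptgs1 made up between 98.7% and 99.9% of the summed TPM of the pair.

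Tbxas1, the thromboxane synthase on chromosome 6 from 38875404 to 39084585 (plus strand), was at 62.1, 48.3 and 46.2 CPM in the control libraries and 119, 91.9 and 80.9 CPM in the KO libraries. The groups did not overlap. Its means were 52.2 ± 8.61 and 97.3 ± 19.8 CPM (SD, n = 3 each), a 1.86-fold difference, and the log2 fold change of 0.90 ± 0.18 was called with any 1 library left out (0.73 to 1.04). That call held only by a small margin without control replicate 2 or 3. Exons of Tbxas1, Alox5ap and Ptgs1 overlap annotated transcripts of the opposite strand, and since the sources disagree on whether the kit kept strand, reads of the opposite strand may be in their counts. Hpgds, the prostaglandin D2 synthase, was at 0.719, 1.22 and 1.51 CPM in the control libraries and 1.76, 1.78 and 1.5 CPM in the KO libraries. It rests on 19 to 49 counts per library, the groups overlapped, and the log2 fold change was 0.55 ± 0.31.

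**Figure D2:**
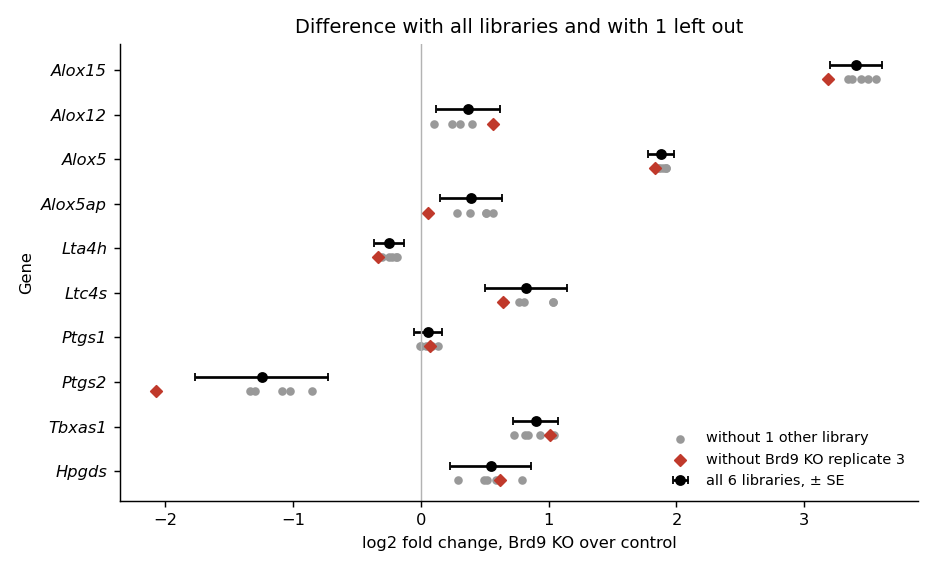
Log2 fold change between Brd9 KO and control (horizontal, positive where KO is higher) for each of the 10 genes (vertical). Black points are fits of all 6 libraries with SE bars, grey points leave out 1 library in turn and red diamonds leave out Brd9 KO replicate 3. Alox15 and Alox5 stay far from 0 in every fit, while Ptgs2 moves from -1.24 to -2.07 without that library.

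Levels of different genes were compared on TPM, which is scaled by transcript length. In control cells Alox5ap and Lta4h led, with mean TPM of 403 and 343 and overlapping ranges. They were followed by Alox12 (58.5), Tbxas1 (35.5), Ptgs1 (30.0), Alox5 (22.3), Alox15 (12.3) and Ltc4s (4.41), with no overlap between neighbours in that order. Hpgds (0.467) and Ptgs2 (0.307) were last, with overlapping ranges. In Brd9 KO cells Alox15 had the 3rd highest mean, 149, behind Alox5ap (603) and Lta4h (334), where it had been 7th in every control library. It was 4th in Brd9 KO replicate 1, in which Alox12 lay just above it, and 3rd in the other KO libraries. Alox5 (95.1), Alox12 (91.0) and Tbxas1 (78.8) came next. The range of Alox12 overlapped those of Alox15, Alox5 and Tbxas1, and the ranges of Alox5 and Tbxas1 overlapped as well. Ptgs1 (36.5), Ltc4s (9.15), Hpgds (0.780) and Ptgs2 (0.143) came last, with no overlap between neighbours.

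The make-up of the lipoxygenase transcripts therefore differed between the groups, and shares within a library do not depend on how libraries are scaled to each other. The summed TPM of the 7 lipoxygenase genes was 97.0, 99.0 and 92.3 in the control libraries and 350, 374 and 314 in the KO libraries. Alox12 held 67.5%, 60.4% and 54.5% of it in the control libraries, and 35.3%, 25.7% and 16.9% in the KO libraries. Alox15 held 10.1%, 13% and 15.5% in the control libraries, and 34.7%, 43.0% and 52.0% in the KO libraries. The largest share thus belonged to Alox12 in every control library. In Brd9 KO it belonged to Alox15 in replicates 2 and 3, while Alox12 and Alox15 were close in replicate 1. Alox5 held 19.7% to 26.2% in control and 26.8% to 28.2% in Brd9 KO. Alox12b, an enzyme of the skin barrier, was at 0 TPM in all 6 libraries, and its skin partner Aloxe3 did not exceed 0.13 TPM.

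**Figure D3:**
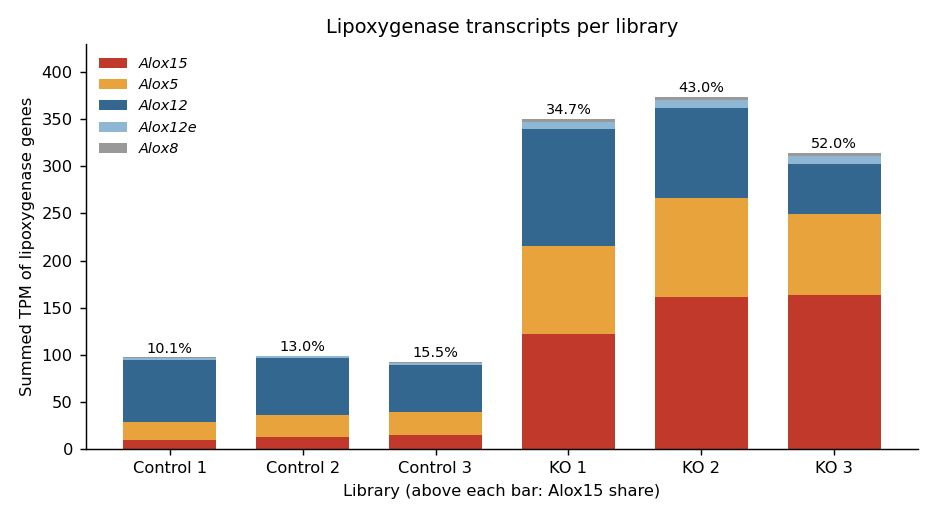
Summed TPM of the lipoxygenase genes (vertical) in each library (horizontal), stacked by gene, with the Alox15 share printed above each bar. Alox15 rises from 10.1% to 15.5% of the sum in control libraries to 34.7% to 52.0% in Brd9 KO libraries, as the Alox12 share shrinks.

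Genes on either side of Alox15 were then examined, a choice made after their values were seen. Of 6 genes of the files that lie within 100 kb of it, 5 were tested. Alox12e, an epidermal-type 12-lipoxygenase whose gene ends 21.5 kb from Alox15, was at 3.67, 3.29 and 4.42 CPM in the control libraries and 12.0, 10.5 and 15.1 CPM in the KO libraries. The groups did not overlap, and its log2 fold change was 1.72 ± 0.21 (adjusted p = 0.00478, edgeR). Arrb2, an arrestin that dampens receptor signalling, lies 80.6 kb away on the other side and rose by 0.68 ± 0.21 (adjusted p = 0.0873). Pelp1 (-0.18 ± 0.12), which lies between Alox15 and Arrb2, and Med11 (0.06 ± 0.16) did not pass, nor did Alox12 at the far end of the lipoxygenase genes. The rise was thus uneven along the 110575 bases from Alox12 to Alox15. The longest run of bases shared by the Alox15 and Alox12e transcripts was 16.

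**Figure D4:**
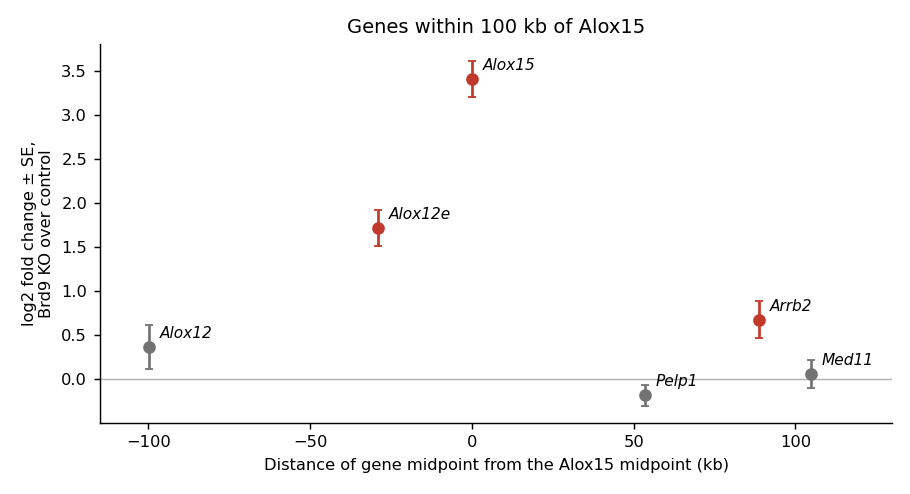
Log2 fold change between Brd9 KO and control with SE (vertical) against the distance of a gene's midpoint from that of Alox15 (horizontal, kb), for genes with less than 100 kb between them and Alox15. Red points were called higher, grey points were not called, and Pelp1 lies below 0 between Alox15 and Arrb2.

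Other genes of the pathway were taken from 7 lists, whose choice was made with earlier results of these data known. Of 94 genes listed, 73 were tested, and 15 were higher and 7 lower in Brd9 KO, or 30.1% called against 15.4% over all genes. Of the 73, 4 entered the test only through the KO libraries, and 1 of these was called higher. The lists overlap in function with the blood lineages compared below. No test of the lists was made, and nothing is read from the share called. Of the 22 calls, 11 held with any 1 library left out. The number of calls was 36 without Brd9 KO replicate 3, 12 with control replicate 3 left out, and 14 with either control replicate 2 or Brd9 KO replicate 1 left out. Over all genes those fits called 4150, 917, 729 and 641 of 13124 to 13177 tested, in the same order.

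Among 17 tested genes of substrate release and recapture, 4 were higher and 1 lower. Only 2 were called without control replicate 1 or 3, and 3 without control replicate 2 or KO replicate 1 or 2. Faah, the hydrolase that frees arachidonic acid from anandamide, rose by 1.17 ± 0.14 (adjusted p = 0.00472), from 10.1 to 12.7 CPM in control to 23.6 to 27.9 CPM in Brd9 KO. Lpcat2, which puts acyl chains back on lysophospholipids and makes platelet-activating factor, rose by 1.24 ± 0.19 (adjusted p = 0.00987). Pla2g7, which degrades platelet-activating factor, rose by 2.06 ± 0.48 (adjusted p = 0.0409), with 4.13, 3.71 and 11.5 CPM in Brd9 KO. Its call was lost without any one of the control libraries. The secreted phospholipase Pla2g12a fell by 0.70 (SE 0.17, adjusted p = 0.0435), and its call was lost when control replicate 1 or 3, or KO replicate 1 or 2, was left out. Pla2g4a, the cytosolic phospholipase A2 that frees arachidonic acid for the lipoxygenases and cyclooxygenases, was just past the threshold at 0.53 ± 0.17 (adjusted p = 0.0987). Its groups overlapped, its call was lost without any library except Brd9 KO replicate 3, and it is named after its value was seen.

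Of 10 tested genes of the other lipoxygenases and hydroperoxide handling, 3 were higher and 3 lower. Alox8, the 8-lipoxygenase, was at 1.85, 1.86 and 1.88 CPM in the control libraries and 5.44, 6.62 and 7.86 CPM in the KO libraries, a rise of 1.83 ± 0.21 (adjusted p = 0.00451). Ephx2, the soluble epoxide hydrolase, fell by 1.90 (SE 0.23, adjusted p = 0.00519), from between 5.78 and 8.78 CPM to between 1.69 and 2.15 CPM. Cyp2j6, of the P450 family that makes epoxides of fatty acids, fell by 1.27 (SE 0.24, adjusted p = 0.0237).

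Among 12 tested terminal prostanoid synthases and inactivating enzymes, 2 were called, both in the inactivating arm and both lower. Ptgr1, which reduces prostaglandins and oxidised leukotriene B4, fell from 113, 98.9 and 101 CPM to 34.7, 37.0 and 55.6 CPM, a log2 fold change of -1.30 ± 0.18 (adjusted p = 0.00792). Hpgd, which oxidises prostaglandin E2, was at -0.67 ± 0.20 (adjusted p = 0.0835), and its call was lost without any library except Brd9 KO replicate 3, on TPM and with scaling by the library total. With Brd9 KO replicate 3 left out, 6 of these genes were lower.

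In leukotriene handling, 2 of 8 tested genes were called, both higher, while without Brd9 KO replicate 3 there were 3 higher and 2 lower. Abcc2, a conjugate export pump, rose by 1.90 ± 0.37 (adjusted p = 0.0244). Dpep1, the dipeptidase that turns leukotriene D4 into E4, was called higher from 1, 1 and 3 counts in control to 15, 22 and 23 in Brd9 KO (adjusted p = 0.00875), and it entered the test only through the KO libraries. Of 6 tested prostanoid receptors, 2 were called, with 1 more, lower, when Brd9 KO replicate 3 was left out. Among them the prostaglandin E2 receptor Ptger3 rose by 1.03 ± 0.18 (adjusted p = 0.0156) and the prostacyclin receptor Ptgir by 0.57 ± 0.15 (adjusted p = 0.0635), the latter with its call lost when control replicate 2 or 3, or KO replicate 1 or 2, was left out. Of 8 tested leukotriene and lipoxin receptors, 2 were called, both higher, and without Brd9 KO replicate 3 there were 3 higher and 1 lower. Cmklr1, the receptor of chemerin and resolvin E1, rose by 1.76 ± 0.29 (adjusted p = 0.0142). Ltb4r2, the low-affinity leukotriene B4 receptor, rose by 1.23 ± 0.31 (adjusted p = 0.0528), on 11 to 25 counts in control and 33 to 54 in Brd9 KO, and its call was lost when control replicate 1 or 2, or KO replicate 1 or 2, was left out.

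The cytokines IL-4 and IL-13 are known to induce Alox15 in macrophages, and 12 genes of that response were tested, of which 2 were higher and 1 lower. Without Brd9 KO replicate 3, 5 were higher and 2 lower. Il2rg, the shared receptor chain, rose by 0.58 ± 0.12 (adjusted p = 0.0274). Il4 itself was at 1.70, 0.717 and 1.36 CPM in the control libraries and 3.07, 2.18 and 4.24 CPM in the KO libraries (1.31 ± 0.38, adjusted p = 0.0754). Arg1, an arginase of alternatively activated macrophages, fell by 1.74 (SE 0.40, adjusted p = 0.0404) on 15 to 30 counts in control and 5 or 6 in Brd9 KO. The calls of all 3 were lost without control replicate 3, those of Il2rg and Il4 without control replicate 2, those of Il4 and Arg1 without KO replicate 1, and that of Arg1 without KO replicate 2. Some genes not called are named after their values were seen. Pparg (0.91 ± 0.30), Chil3 (1.18 ± 0.77) and Mrc1 (0.38 ± 0.27) were positive, and Il4ra (-0.31 ± 0.15) was negative. The positive value of Chil3 came from Brd9 KO replicate 3 alone, at 732 CPM. In KO replicates 1 and 2 it was at 75.1 and 98.0 CPM, below its control range of 127 to 137 CPM. The part of IL-4 or IL-13 in the Alox15 value was not tested.

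Marker lists of cells in which these enzymes are known to be expressed were read beside the members. Over all tested genes 9.19% were called higher and 6.25% lower. Of 10 eosinophil genes, 8 were higher and 1 lower, and none was at 0 in all libraries of a group. With 1 library left out, 6 to 8 were higher and 1 lower. Their summed TPM was 3691 to 3993 in control and 10046 to 15954 in Brd9 KO. Most of that sum was Prg2, named after its values were seen, at 2893 to 3230 TPM in control and 7997 to 12640 TPM in Brd9 KO. Il5ra, the IL-5 receptor, rose by 2.23 ± 0.18 (adjusted p = 0.00122). Ccr3, a chemokine receptor for eotaxin, rose by 3.13 ± 0.32 (adjusted p = 0.00323). Epx, the eosinophil peroxidase, fell by 1.54 (SE 0.17, adjusted p = 0.00345), from between 302 and 324 CPM to between 83.5 and 132 CPM. Relative to the control mean, the median of these 10 genes lay 1.12, 1.10 and 2.04 higher in Brd9 KO replicates 1, 2 and 3 on a log2(CPM + 0.5) scale, and Alox15 lay 3.02, 3.29 and 3.74 higher. Alox15 exceeded the list median by 1.70 to 2.19 in every KO library. Since Alox15 was chosen for its rise, a place above that median was likely in advance, and nothing is read from it. The part of eosinophil RNA in the Alox15 and Alox5 values was not tested.

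**Figure D5:**
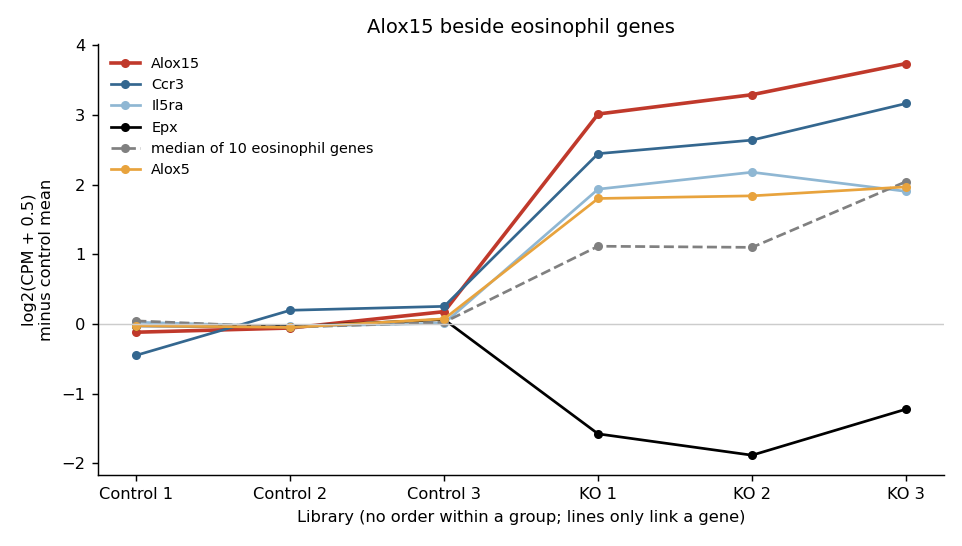
Log2(CPM + 0.5) minus its control mean (vertical) in each library (horizontal) for Alox15, Alox5, Ccr3, Il5ra, Epx and the median of 10 eosinophil genes. Alox15, which was chosen for its rise, lies above every other curve in the 3 KO libraries, at 3.02 to 3.74, and Epx lies below 0 there.

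Macrophage genes were higher in 6 and lower in 2 of 11 tested, where Mertk, called higher, and Siglec1 entered the test only through the KO libraries, with a summed TPM of 92.3 to 149 in control and 154 to 191 in Brd9 KO. They numbered 3 higher with control replicate 2 left out, and a single member was lower with control replicate 1 or 3, or KO replicate 1, left out. The complement genes C1qc (1.67 ± 0.29, adjusted p = 0.0156) and C1qb (2.18 ± 0.39, adjusted p = 0.0184) rose, and Vcam1, an adhesion molecule of marrow macrophages, fell by 1.4 (SE 0.25, adjusted p = 0.0167). Mast cell and basophil genes were higher in 6 of 7, and in 4 of them with any 1 control library or KO replicate 1 left out, with a summed TPM of 2850 to 3628 in control and 5971 to 6925 in Brd9 KO. Ms4a2, a chain of the IgE receptor, rose by 1.28 ± 0.12 (adjusted p = 0.00246). Megakaryocyte and platelet genes were higher in 7 of 12, and in 4 with control replicate 3 left out, with a summed TPM of 2082 to 3238 in control and 4945 to 7632 in Brd9 KO. Itgb3, a chain of the platelet fibrinogen receptor, rose by 1.11 ± 0.20 (adjusted p = 0.0182). In Brd9 KO replicates 1, 2 and 3 the median of the megakaryocyte list lay 1.19, 0.83 and 0.64 above the control mean, in the same order as Tbxas1 (1.20, 0.82 and 0.64) and Alox12 (0.81, 0.32 and -0.11). No other member had that order in the KO libraries, Ptgs1 (0.17, -0.02 and 0.02) included. In control replicates 1, 2 and 3 the list lay at 0.47, -0.22 and -0.26. Ptgs1 had that control order too (0.15, -0.02 and -0.13), as did Tbxas1 and Alox12. An order of 3 libraries can match by chance, and nothing is read from it. Neutrophil genes were lower in 3 of 11, in 8 with Brd9 KO replicate 3 left out and in 1 with any other library left out, with a summed TPM of 17743 to 19980 in control and 12183 to 34263 in Brd9 KO. Of these lists, Mcpt4, a mast cell protease, was at 0 in all control libraries, and Mertk, Siglec1, Timd4 and Marco of the macrophage list were under 1 TPM throughout. The part of these cells in the members' values was not tested.

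Of other lists, stroma and endothelium genes were higher in 7 of 9 tested. Of the 9, 3 entered the test only through the KO libraries, and all 3 were among those called higher. The number called higher was 4 with control replicate 1 or 2, or KO replicate 1 or 2, left out. Monocyte and dendritic cell genes were lower in 3 of 8 and in 2 to 4 with 1 library left out. Erythroid genes were lower in 3 of 7 and in 2 to 5 with 1 library left out. T and NK cell genes were higher in 2 and lower in 1 of 8, and the higher calls were lost without control replicate 2 or KO replicate 2, and 1 of them without control replicate 1. Of the genes of the sorted population, Kit (43.0 to 86.0 TPM) and Cd34 (156 to 259 TPM) were expressed in every library and not called. Ptprc, which encodes CD45, rose by 0.47 ± 0.12 (adjusted p = 0.0527), with its call lost without control replicate 1 or 2 or KO replicate 1 or 2.

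The 5 tested genes with the profile most like that of Alox15, by the root mean square difference of log2(CPM + 0.5) from the control mean over the 6 libraries, were Tnc (0.434), Ccr3 (0.458), Cxcl12 (0.682), Igfbp7 (0.711) and Gzma (0.746). Tnc encodes the matrix protein tenascin C, Cxcl12 a chemokine of marrow stroma, Igfbp7 a secreted binding protein and Gzma a granzyme. Tnc was at 0.378, 0.127 and 0.368 CPM in the control libraries, under the filter, and entered the test only through the KO libraries. Its fitted log2 fold change was 4.41 ± 0.39, but its KO levels in this measure, where 0.5 is added to each CPM, were 3.10, 3.45 and 2.77. Its first place therefore depends on the added 0.5. Alox5 was the 22nd nearest at 1.06 and Alox12e the 48th at 1.25. The next member, Tbxas1, was the 466th at 1.79. Since Alox15 was chosen for its rise, genes that rose strongly are near it by construction. Of the 5, Ccr3 had its highest value in Brd9 KO replicate 3, as Alox15 did, with 9.70, 11.2 and 16.3 CPM in the KO libraries, and so did Igfbp7 and Gzma, while Tnc and Cxcl12 had their lowest KO value there.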

How the data were processed

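RNA-seq was analysed in 6 libraries, 3 control and 3 Brd9 KO, grouped by genotype label. The authors' methods state that reads were mapped to mm10 with nf-core STAR and RSEM. The deposited tables give, per gene, the expected count (an estimated count that need not be whole), and the authors' TPM, a length-scaled abundance. The deposited FPKM column was not used. The members and the gene lists were chosen with earlier results of these data known.

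Expected counts were rounded, filtered with filterByExpr, scaled by TMM and tested by group with the quasi-likelihood fit of edgeR 4.0.16 (R 4.3.3), without covariates. Benjamini-Hochberg adjustment covered 12953 genes, and genes with an adjusted p under 0.1, the threshold of the study's methods, were called. The SE was obtained by dividing the log2 fold change by the square root of F. Named genes are the 10 members, Brd9, up to 4 called genes per pathway list and 3 per marker list with the smallest p, and the 5 genes nearest Alox15 in profile. Some of these marker genes are counted but not named. Alternatives included RLE and library-total scaling, other filters, a stricter threshold, DESeq2 1.42.0, limma-voom and limma 3.58.1 on log2(TPM + 1) or log2(TPM + 0.1), a replicate block, and each library left out. The fit was tested on simulated data with the same relative spread for all genes. It recovered 22.5% of 1.5-fold, 78.7% of 2-fold and 98.5% of 4-fold changes, and 6.43% of its calls were false. A gene that was not called is therefore not shown to be unchanged. The study's independent hypothesis weighting was not run.

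Totals of 21151031 to 28500168 counts per library set the precision, which is low for genes near 1 CPM. Positions came from an mm10 annotation and promoters from RefSeq.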

Additional observations from a re-analysis of the deposited data

How the results depend on the processing

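Alox15, Alox5 and Tbxas1 were called higher in every one of 16 alternatives run, with log2 fold changes of 3.18 to 3.58, 1.83 to 2.09 and 0.73 to 1.11. For Tbxas1 the call held only by a small margin without control replicate 2 or 3. The number of members called was 5 on log2(TPM + 1) and 5 on log2(TPM + 0.1), where Alox5ap and Ltc4s joined them, and 3 to 6 with 1 library left out, the 6 being without Brd9 KO replicate 3. Other pathway genes called numbered 12 to 36 with 1 library left out. Over all genes the calls numbered 641 to 4150 with 1 library left out, 4150 without Brd9 KO replicate 3, and 1015 at an adjusted p under 0.05. The log2 fold change of Ptgs1 changed sign, from 0.06 to -0.0087, without control replicate 3, and ranged from -0.01 to 0.14 with 1 library left out, on values close to 0. The causes were not tested. Scaling by the library total alone made 74.1% of all calls higher in place of 59.5% and put the median log2 fold change of all genes at 0.10 in place of 0.016, and TPM made 83.3% or 84.0% higher with medians of 0.18 and 0.22, yet gave the members' calls described above. DESeq2 called 2750 genes and 3 members.

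Replicate numbers are shared by the groups but did not pair the libraries. Deviations from the group means correlated at -0.10, 0.57 and 0.01 for numbers 1, 2 and 3, and not every library correlated best with its own number. With the replicate number as a block, 2077 genes, 4 members (Ltc4s added) and 22 other pathway genes were called. Brd9 kept its call throughout (-1.75 to -1.28 on the log2 scale). Ptgs2, Hpgds and Ltc4s rest on between 4 and 67 counts per library, which limits the precision of their values.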
